A study of Drosophila melanogaster with 9 samples.

Results

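The genes described here encode the proteins of the mitochondrial ribosome in Drosophila melanogaster. They were taken by name, as every gene whose FlyBase symbol begins with mRpL or mRpS followed by a digit. This gave 73 genes of the 17562 in the count table, of which 47 have mRpL symbols and 26 have mRpS symbols. They are called large and small subunit genes here by symbol alone, and a symbol need not match the subunit that holds the protein. All 73 passed the filter on low counts and were tested. They lie on chromosome arms 2L (12 genes), 2R (12), 3L (17) and 3R (21) and on the X chromosome (11).

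RNA was sequenced from S2R+ cells, an embryonic line with hemocyte-like features that was derived from the Oregon-R strain, with 3 replicate cultures in each of 3 media. Those called 10% FEx and 2.5% FEx here (M3 + 10% FEx in full, likewise M3 + 2.5% FEx) were basal M3 medium with that share of fly extract (FEx), a heat-treated homogenate of adult flies, and held neither serum nor bactopeptone and yeast extract. MB10, the control, was M3 with bactopeptone, yeast extract and 10% fetal bovine serum, so a comparison with MB10 covers all of these differences at once. Each medium held 1 line, and the cells in 2.5% FEx came from those already adapted to 10% FEx. Changes that a line acquired while it adapted and direct effects of the medium cannot be told apart, and p-values measure only the spread between cultures of 1 line per medium. In these bulk samples, fewer cells of a type and less RNA per cell also cannot be told apart.

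The mitochondrial ribosome translates the few respiratory chain subunits that are still encoded by mitochondrial DNA. Its ribosomal RNAs come from the mitochondrial genome, while its proteins are encoded in the nucleus, made in the cytosol and imported. Many of these proteins belong to families that are shared with bacteria, and others occur only in mitochondria. Loss of single members in flies impairs respiration and growth, as in mutants of the genes tko and bonsai, which encode proteins of the small subunit under other names.

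Library totals ran from 20694827 to 29076620 counts, and the genes described here had 197 to 3834 counts per library. Levels are given as CPM (read count relative to library size, normalized by the TMM method of edgeR). Of 8 hemocyte markers, 7 were tested, and NimC1 did not pass the filter. By the test described below, 4 of the 7 were lower and 1 higher in 10% FEx than in MB10, and 2 were lower and 0 higher in 2.5% FEx. The lower ones in 10% FEx were Pxn (89.4 CPM in 10% FEx, 162 CPM in 2.5% FEx and 377 CPM in MB10), Hml (3.23, 13.5 and 12.03 CPM in the same order), Col4a1 (2.78, 4.23 and 4.50 CPM) and the transcription factor gene srp (230, 265 and 290.2 CPM), and the higher one was He (2.79, 0.777 and 0.680 CPM). In 2.5% FEx, Pxn and eater (2.37, 2.12 and 3.37 CPM) were lower. The part of these markers in the results was not tested. Of 9 markers of adult fly tissue, elav alone was tested (38.3, 49.1 and 36.6 CPM in the same order), and the other 8 had at most 13 counts in a library. The 3 MB10 libraries differed among themselves in the genes described here. Relative to the mean of the other 2 libraries of its medium, on the scale log2(CPM + 0.5), the median gene of the 73 was at -0.35 in MB10 replicate 2 and at 0.37 in MB10 replicate 3, while the median over all tested genes was close to 0 in both (-0.01 and 0.00). In MB10 replicate 2, 5 of the 73 genes were above that mean, and in replicate 3 this held for 66. Across all tested genes, the deviation also ran with gene length, with a Spearman coefficient of 0.478 against exon length in replicate 2 and -0.315 in replicate 3. The counts over the 73 genes are therefore given with and without these libraries, as are the values of other genes that depended on an MB10 library.

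Summed over the 73 genes, the transcripts of the mitochondrial ribosome took 2808, 2744 and 2585 CPM in 10% FEx, 2850, 2944 and 2752 CPM in 2.5% FEx, and 3344, 2881 and 3749 CPM in MB10. The means were 2713 ± 115 CPM in 10% FEx, 2849 ± 95.8 CPM in 2.5% FEx and 3325 ± 434 CPM in MB10 (SD, n = 3 each). The sum was thus lower than in MB10 by 18.4% in 10% FEx, where no library reached the lowest MB10 library. In 2.5% FEx it was lower by 14.3%, and replicate 2 of that medium lay above replicate 2 of MB10. Against the MB10 mean without replicate 3, the sums were lower by 12.9% in 10% FEx and 8.49% in 2.5% FEx, and without replicate 2 by 23.5% and 19.7%. The spread was largest in MB10, and no test was made on the sums.

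**Figure D1:**
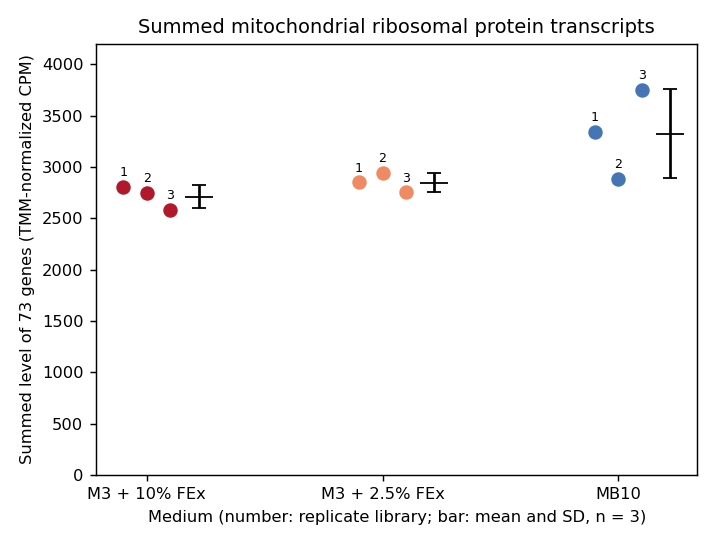
Summed level of the 73 mitochondrial ribosomal protein genes in TMM-normalized CPM (vertical axis, from 0) in each library of the 3 media (horizontal axis), with points for libraries, numbers for replicates and bars for the mean and SD. The 3 10% FEx libraries lie between 2585 and 2808 CPM, below all MB10 libraries, which spread from 2881 to 3749 CPM.

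Per kilobase of exon, the mean level over the 9 libraries ran from 14.3 to 108 CPM per kb with a median of 44.3, so that the highest and the lowest of the 73 genes were 7.58-fold apart. Exon length was the union of all annotated exons of a gene, whether or not these cells use them. At the top were mRpL23, whose bacterial counterpart sits at the exit of the polypeptide tunnel (108 CPM per kb), mRpL14, a protein of the subunit interface in bacteria (106.3 CPM per kb), and mRpL52, which is specific to mitochondria (99.4 CPM per kb). The lowest were mRpL21 (14.3 CPM per kb), mRpS14, of the head of the small subunit (16.2 CPM per kb), and mRpL48 (17.1 CPM per kb). These proteins belong to 1 particle, yet their transcripts were not at equal levels. Exons of mRpS14 overlap CG32533 on the same strand and Naa15-16 on the opposite strand, and the largest overlap covers 32.0% of their length. Part of its count may therefore belong to another gene.

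In 10% FEx, 35 of the 73 genes (47.9%) were lower than in MB10 and 0 were higher (edgeR's quasi-likelihood F test on all 9 libraries, two-sided, adjusted p under 0.05). Of all 8705 genes tested, 27.6% were lower and 25.5% higher by the same rule. The median log2 fold change was -0.29 over the 73 genes and -0.04 over all tested genes, and 71 of the 73 values were below 0, against 53.5% of all tested genes. Without MB10 replicate 3 the median over the 73 genes was -0.14 and 59 values were below 0, and with a trend on exon length removed from each library, described below, 42 were below 0. The changes were small, with log2 fold changes between -0.94 and 0.04, and 0 of the 73 genes also passed a fold threshold of 1 on the log2 scale, which 3.63% of all tested genes passed downward and 7.34% upward. At an unadjusted p under 0.05, 0 of the 73 genes were higher and 39 lower, beside 27.6% and 30.5% of all tested genes. DESeq2 called 0 higher and 35 lower, beside 25.7% lower of all tested genes. Without MB10 replicate 2 the number of lower genes was 57, beside 28.8% of all tested genes. Without replicate 3 it was 29, with 2 genes higher, beside 27.7% lower of all tested genes. Whichever MB10 library was left out, 26 genes were called lower, and the share of all tested genes for this is not given here. The number was 33, 27 and 25 without 10% FEx replicates 1, 2 and 3 in turn, beside 24.5%, 23.3% and 23.5% of all tested genes. With the length trend removed, 11 of the 73 genes were lower and 3 higher, and the 11 made up a smaller share than the 21.8% lower of all tested genes.

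**Figure D2:**
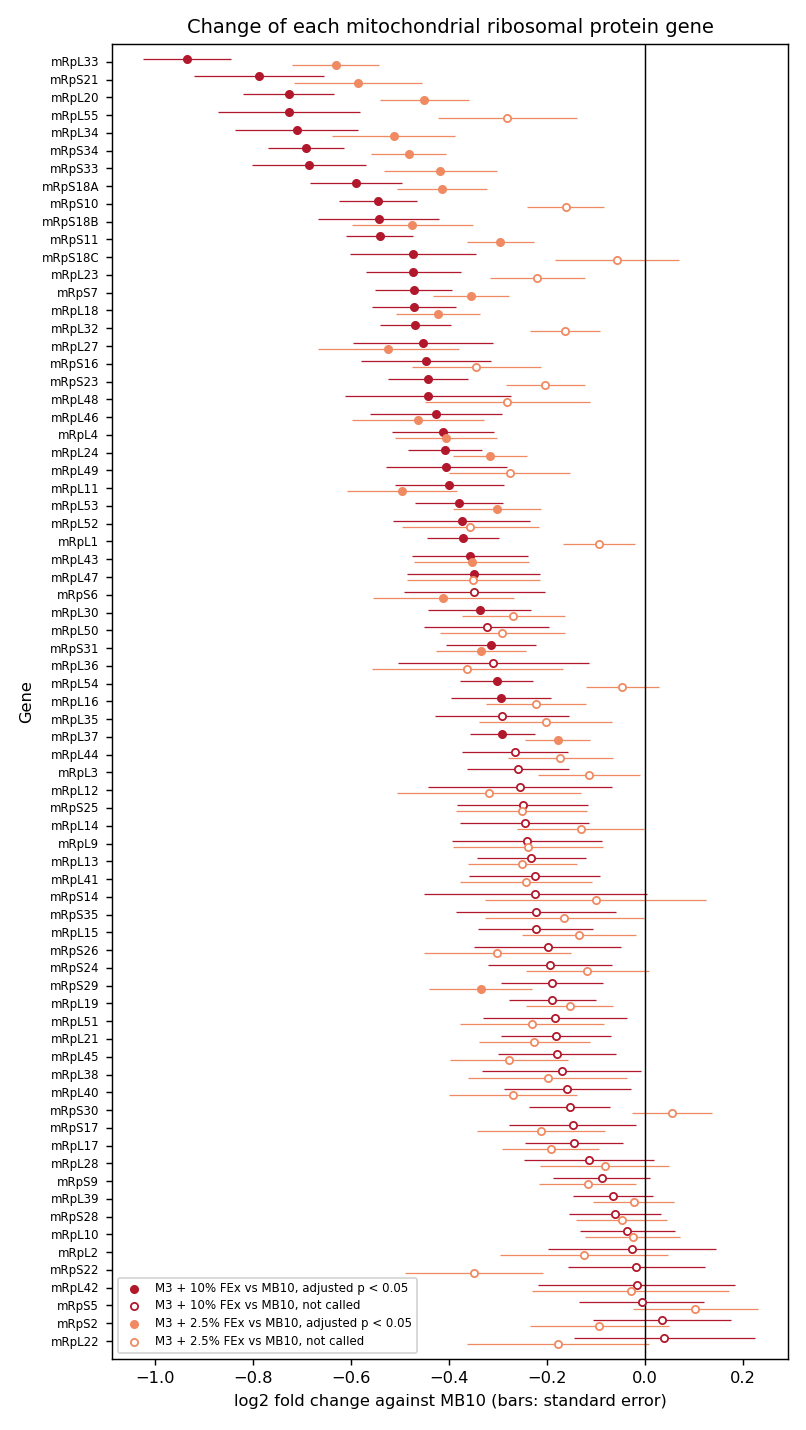
Log2 fold change against MB10 (horizontal axis) of each of the 73 genes (rows), dark red for 10% FEx and orange for 2.5% FEx, filled where the adjusted p is under 0.05, with bars for the standard error. In each comparison 71 of the 73 points lie left of 0, between -0.94 and 0.10 in all.

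Among large subunit genes, mRpL33 (FBgn0040907, chromosome X from 4321764 to 4322231 in the BDGP6.54 annotation), which encodes one of the smallest proteins of the subunit, had the lowest ratio. It was at 18.8, 21.4 and 19.6 CPM in 10% FEx and at 39.7, 38.7 and 36.1 CPM in MB10. The groups did not overlap, and the level in 10% FEx was 0.523 of that in MB10 (log2 fold change -0.94, standard error 0.09, adjusted p = 4.36e-06). With the length trend removed it was -0.60 (adjusted p = 0.000257).

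The gene mRpL20 (FBgn0036335, chromosome arm 3L from 13017149 to 13017867) encodes the counterpart of a bacterial protein that acts early in assembly of the large subunit. It was at 19.3, 18.5 and 17.1 CPM in 10% FEx and at 31.3, 26.5 and 33.3 CPM in MB10 (log2 fold change -0.73, standard error 0.09, adjusted p = 4.29e-05). For mRpL34 (FBgn0083983, chromosome arm 2R from 16098948 to 16099337), the values were 17.01, 17.8 and 15.7 CPM in 10% FEx and 32.3, 22.2 and 28.2 CPM in MB10 (log2 fold change -0.71, standard error 0.13, adjusted p = 0.000546). Neither gene overlapped between the media, although the lowest MB10 value of each came from replicate 2.

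For mRpL55 (FBgn0038678, chromosome arm 3R from 19094394 to 19094905), a large subunit protein of animals, the values were 21.8, 21.1 and 18.5 CPM in 10% FEx and 32.8, 26.8 and 42.2 CPM in MB10 (log2 fold change -0.73, standard error 0.14, adjusted p = 0.00119). All 10% FEx libraries were below all MB10 libraries, which differed widely from each other. The calls of mRpL20, mRpL34 and mRpL55 held whichever library was left out and with the length trend removed (log2 fold changes -0.41, -0.37 and -0.38).

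The genes at the other end of the 23 large subunit genes that were lower were mRpL37, mRpL16, mRpL54, mRpL30 and mRpL47, with log2 fold changes between -0.35 and -0.29. The MB10 libraries lay close together in mRpL37, which is specific to mitochondria, with 51.2, 59.5 and 57.3 CPM in 10% FEx and 67.8, 69.3 and 68.3 CPM in MB10 (log2 fold change -0.29, standard error 0.07, adjusted p = 0.00301). They were spread widely in mRpL47, of the protein family L29 at the tunnel exit, with 49.8, 41.5 and 41.3 CPM in 10% FEx and 60.1, 43.2 and 66.1 CPM in MB10 (log2 fold change -0.35, standard error 0.14, adjusted p = 0.0467). Its groups overlapped, and the call was lost without MB10 replicate 1 (adjusted p = 0.144) or replicate 3 (adjusted p = 0.136), without 10% FEx replicate 2 (adjusted p = 0.142) or replicate 3 (adjusted p = 0.140), and without any single 2.5% FEx library. The calls of mRpL16 and mRpL30 were lost without MB10 replicate 1 and without 10% FEx replicates 2 and 3, and that of mRpL16 also without MB10 replicate 3. None of these 5 genes was called with the length trend removed.

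Of the genes with the highest levels per kilobase of exon, mRpL23 was lower (68.0, 65.5 and 56.1 CPM in 10% FEx, 98.7, 78.5 and 86.4 CPM in MB10, log2 fold change -0.47, adjusted p = 0.00145), with no overlap between the groups. For mRpL14 the values overlapped (69.0, 63.5 and 58.5 CPM in 10% FEx, 74.1, 58.9 and 93.7 CPM in MB10), and the difference did not pass the test (log2 fold change -0.25, standard error 0.13, adjusted p = 0.135). For mRpL52 the values also overlapped (54.9, 51.8 and 44.0 CPM in 10% FEx, 67.4, 49.6 and 78.6 CPM in MB10), and the call (log2 fold change -0.37, adjusted p = 0.0402) was lost without MB10 replicate 1 (adjusted p = 0.107) or replicate 3 (adjusted p = 0.126), 10% FEx replicate 2 or 3, or 2.5% FEx replicate 1 or 2. In MB10, mRpL14 and mRpL52 were lowest in replicate 2 and highest in replicate 3. Of the genes with the lowest levels per kilobase of exon, mRpL21, with 1696 bases of exon, was at 23.5, 23.5 and 23.1 CPM in 10% FEx. In MB10 it was at 26.2, 21.8 and 31.5 CPM, which did not pass the test (log2 fold change -0.18, adjusted p = 0.195). The gene mRpL48 was at 11.1, 12.2 and 11.6 CPM in 10% FEx and at 14.3, 12.4 and 20.7 CPM in MB10 (log2 fold change -0.44, adjusted p = 0.0446). Its groups lay just apart, and its call was lost, with a log2 fold change of -0.19 without MB10 replicate 3, when any library other than MB10 replicate 2 and 2.5% FEx replicates 2 and 3 was left out.

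Of the small subunit genes, 12 of 26 were lower, with a median log2 fold change of -0.28, beside 23 of 47 and a median of -0.29 in the large subunit. The lowest ratio was that of mRpS21 (FBgn0044511, chromosome arm 3R from 13381276 to 13381809), whose bacterial counterpart lies near the 3′ end of the small ribosomal RNA. It was at 24.0, 21.8 and 19.9 CPM in 10% FEx and at 45.1, 32.1 and 36.6 CPM in MB10 (log2 fold change -0.79, standard error 0.13, adjusted p = 0.000357). The groups did not overlap, but 48.0% of the exon length of mRpS21 is also covered by CG8870 on the opposite strand, and whether reads were counted by strand is not given in the sources used here.

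The gene mRpS34 (FBgn0285951, chromosome arm 3L from 16348074 to 16348782) encodes a protein specific to mitochondria that mice need for a stable small subunit. It was at 30.8, 36.8 and 35.5 CPM in 10% FEx and at 52.3, 56.5 and 57.5 CPM in MB10 (log2 fold change -0.69, standard error 0.08, adjusted p = 1.51e-05). The 3 MB10 values lay close together, well above those in 10% FEx. For mRpS11, of the platform of the small subunit in bacteria, the values were 39.1, 43.3 and 40.5 CPM in 10% FEx and 59.3, 59.9 and 59.7 CPM in MB10 (log2 fold change -0.54, standard error 0.07, adjusted p = 3.97e-05). Both genes were also called lower with the length trend removed, with log2 fold changes of -0.40 and -0.25.

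For mRpS31, the smallest change among the small subunit genes that were lower, the values were 38.5, 31.9 and 30.2 CPM in 10% FEx and 43.8, 38.5 and 43.2 CPM in MB10 (log2 fold change -0.31, adjusted p = 0.0128). The highest 10% FEx library just exceeded the lowest MB10 library, and the call was lost without MB10 replicate 1 (adjusted p = 0.0574) and without 10% FEx replicate 2 (adjusted p = 0.0548) or 3 (adjusted p = 0.0601). At the low end of abundance, mRpS14 was at 12.6, 13.2 and 9.7 CPM in 10% FEx and at 12.7, 9.3 and 19.7 CPM in MB10, and its MB10 libraries enclosed all others. Across the 73 genes, 32 had all 10% FEx libraries below all MB10 libraries and 0 had all of them above, beside 29.8% and 27.4% of all tested genes.

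**Figure D3:**
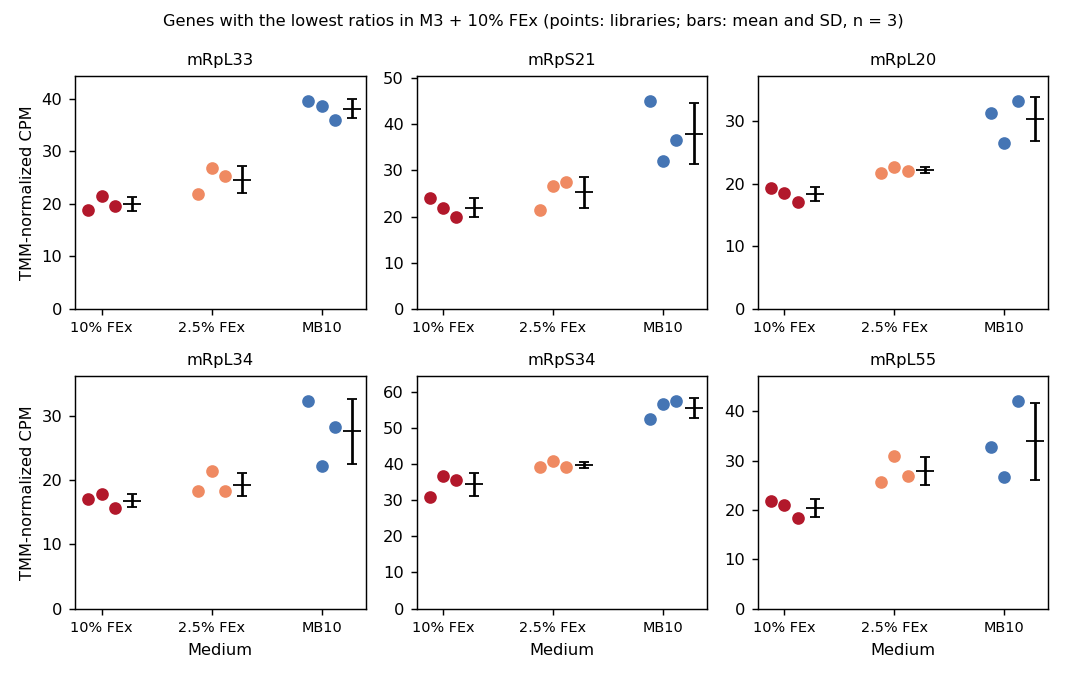
TMM-normalized CPM (vertical axes, from 0) of the 6 genes with the lowest ratios in 10% FEx, in each library of the 3 media, with points for libraries and bars for the mean and SD. In each panel the 10% FEx points lie below all MB10 points, as in mRpL33 (18.8 to 21.4 against 36.1 to 39.7 CPM), and the MB10 points of mRpL55 and mRpL34 are spread widely.

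In 2.5% FEx, 22 of the 73 genes (30.1%) were lower than in MB10 and 0 were higher, beside 22.2% lower and 22% higher of all tested genes. The median log2 fold change was -0.25, against -0.04 over all tested genes. The values ran from -0.63 to 0.10 with 71 of 73 below 0 (54.5% of all tested genes), against 55 without MB10 replicate 3, where the median was -0.12, and 40 with the length trend removed. Of the 73 genes, 0 passed the fold threshold, which 2.93% of all tested genes passed downward and 5.59% upward. At an unadjusted p under 0.05, 0 genes were higher and 35 lower, beside 24.8% and 27.1% of all tested genes. DESeq2 called 0 higher and 24 lower, beside 20.6% lower of all tested genes. All libraries of this medium were below all MB10 libraries in 26 genes and above them in 0, beside 26.3% and 25.2% of all tested genes. Without MB10 replicate 2, 52 genes were lower, beside 25.7% of all tested genes, and without replicate 3, 18 were, beside 20.2%. In all, 15 were lower whichever MB10 library was left out, and the share of all tested genes for this is not given here. The number was 19, 20 and 16 without 2.5% FEx replicates 1, 2 and 3 in turn, beside 15.5%, 16.1% and 15.8% of all tested genes. With the length trend removed, 6 of the 73 were lower and 2 higher, beside 15.9% lower of all tested genes, a larger share than that of the 6. Of the small subunit genes 10 of 26 were lower, and of the large subunit genes 12 of 47.

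The gene mRpL33 again had the lowest ratio, at 21.8, 26.8 and 25.3 CPM in 2.5% FEx, below the MB10 values given above (log2 fold change -0.63, standard error 0.09, adjusted p = 0.000156). For mRpS21 the values were 21.5, 26.7 and 27.5 CPM in 2.5% FEx, also below all MB10 libraries (log2 fold change -0.59, standard error 0.13, adjusted p = 0.00368). For mRpS34 they were 39.1, 40.8 and 39.2 CPM (log2 fold change -0.48, standard error 0.08, adjusted p = 0.000378). These genes, with mRpL20, mRpL27 and mRpL34, made up the 6 that were lower with the length trend removed.

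The gene mRpL27, whose bacterial counterpart reaches the peptidyl transferase centre, was at 14.2, 15.2 and 13.9 CPM in 2.5% FEx and at 19.4, 16.7 and 26.2 CPM in MB10 (log2 fold change -0.52, standard error 0.14, adjusted p = 0.0114). For mRpL11, at the base of the stalk where translation factors bind, the values were 13.3, 12.01 and 13.98 CPM in 2.5% FEx and 17.04, 17.1 and 21.2 CPM in MB10 (log2 fold change -0.50, standard error 0.11, adjusted p = 0.00387). Neither gene overlapped between these media. For mRpL27 the log2 fold change was -0.32 without MB10 replicate 3 and -0.64 without MB10 replicate 2. With the length trend removed, mRpL11 had a log2 fold change of -0.26 and was not called (adjusted p = 0.0670).

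The smallest of the changes that passed in 2.5% FEx were those of mRpL37, mRpS11, mRpL53, mRpL24, mRpS31 and mRpS29, with log2 fold changes between -0.34 and -0.18. For mRpL37 (59.5, 60.2 and 61.8 CPM in 2.5% FEx, log2 fold change -0.18, adjusted p = 0.0463) the call was lost when any one of the MB10 libraries (adjusted p = 0.124, 0.0993 and 0.0538), any one of the 2.5% FEx libraries, or 10% FEx replicate 2 or 3 was left out. The gene mRpS29 encodes a GTP-binding protein that is known in humans as DAP3. It was lower in 2.5% FEx (37.0, 33.9 and 32.0 CPM, against 41.8, 37.2 and 50.9 CPM in MB10, log2 fold change -0.34, adjusted p = 0.0218) but not called in 10% FEx (38.9, 38.3 and 36.6 CPM, log2 fold change -0.19, adjusted p = 0.146), and its call was lost without MB10 replicate 3 (adjusted p = 0.0594) or 2.5% FEx replicate 2 (adjusted p = 0.0629) or 3 (adjusted p = 0.0853). The exons of mRpL53 overlap CG33155 on the same strand and AGO1 on the opposite strand. The largest overlap covers 100% of their length, so the count of mRpL53 is uncertain. Its call in this medium was lost without MB10 replicate 1 or 2.5% FEx replicate 3.

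Of the 73 genes, 20 were lower than MB10 in both FEx media, 15 in 10% FEx only, 2 in 2.5% FEx only (mRpS6 and mRpS29) and 36 in neither. Of all tested genes, 17.2% were lower in both, 10.4% in 10% FEx only, 4.96% in 2.5% FEx only and 67.4% in neither. Both comparisons share the MB10 libraries, so the count for both is not a repeat on separate samples. Whether a gene differs between the FEx media is answered by their direct comparison, which MB10 libraries enter only through the scaling, the filter and the estimate of the spread.

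In that comparison, 8 of the 73 genes were lower in 10% FEx than in 2.5% FEx and 0 were higher, beside 11.3% lower and 10.5% higher of all tested genes. The share of lower genes was thus that of the background. The median log2 fold change was -0.05, the values ran from -0.45 to 0.33, and 47 of 73 were below 0 (50.2% of all tested genes). None of the 73 passed the fold threshold (0 of 73), which 1.05% of all tested genes passed downward and 2.42% upward. At an unadjusted p under 0.05, 1 gene was higher and 14 were lower, beside 16.8% and 17.8% of all tested genes. All 10% FEx libraries were below all 2.5% FEx libraries in 17 genes and above them in 1, beside 23.8% and 23.3% of all tested genes. All 8 were also lower in 10% FEx than in MB10. Both comparisons share the 10% FEx libraries, so this overlap is not a repeat on separate samples.

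The lowest adjusted p of the 8 was that of mRpS10, which encodes a protein of the head of the small subunit. It was at 29.0, 30.0 and 27.1 CPM in 10% FEx and at 37.9, 37.2 and 37.3 CPM in 2.5% FEx (log2 fold change -0.38, standard error 0.08, adjusted p = 0.00529). In MB10 it was at 40.0, 39.1 and 46.6 CPM, just above all 2.5% FEx libraries (log2 fold change of 2.5% FEx -0.16, adjusted p = 0.114). Of the 8 genes, mRpS10 alone was called whichever of the 9 libraries was left out.

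The largest change was that of mRpL55, at 21.8, 21.1 and 18.5 CPM in 10% FEx and at 25.7, 31.0 and 27.0 CPM in 2.5% FEx (log2 fold change -0.45, standard error 0.14, adjusted p = 0.0462). It was followed by mRpS18C, a paralog of mRpS18A and mRpS18B, at 15.1, 14.2 and 12.8 CPM in 10% FEx and at 19.6, 18.9 and 17.8 CPM in 2.5% FEx (log2 fold change -0.42, standard error 0.13, adjusted p = 0.0374). In both genes the groups did not overlap. For mRpL32 the values were 35.2, 35.0 and 31.9 CPM in 10% FEx and 40.4, 44.6 and 41.3 CPM in 2.5% FEx (log2 fold change -0.31, standard error 0.07, adjusted p = 0.0109).

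The other 4 genes were mRpL33, mRpL1, mRpL54 and mRpS11, with log2 fold changes between -0.30 and -0.25. The gene mRpL1 encodes the protein of the mobile stalk beside the exit site for tRNA and was at 37.9, 43.4 and 39.1 CPM in 10% FEx and at 48.2, 49.8 and 47.8 CPM in 2.5% FEx (adjusted p = 0.0197). The number of lower genes depended on single libraries. It was 2, 5 and 1 without 10% FEx replicates 1, 2 and 3, beside 7.01%, 7.88% and 7.21% of all tested genes. It was 1 and 3 without 2.5% FEx replicates 2 and 3, beside 6.47% and 6.06%. Without MB10 replicates 2 and 3, which enter through the spread and the filter, it was 13 and 14, beside 13.8% and 15.5%. The share of all tested genes thus also moved with the library left out.

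Within the 73 genes, the change ran with exon length. Their exons added up to 327 to 2078 bases with a median of 783, against a median of 2027 bases over all tested genes. In 10% FEx against MB10, 9 of the 12 genes under 600 bases were lower (median log2 fold change -0.53), as were 21 of the 39 genes from 600 to under 1000 bases (median -0.35) and 5 of the 22 genes of 1000 bases and over (median -0.19). All tested genes showed a related pattern, with 33.8% lower under 600 bases (median log2 fold change -0.21), 47.0% from 600 to under 1000 bases (median -0.29) and 24.5% at 1000 bases and over (median 0.00). Between 600 and 1000 bases, where most of the 73 genes lie, the 53.9% that were lower stand beside 47.0% of all tested genes of that length. In 2.5% FEx, 5 of 12, 13 of 39 and 4 of 22 genes were lower in the same bins, beside 26.0%, 39.5% and 19.5% of all tested genes.

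The Spearman coefficient between exon length and log2 fold change over the 73 genes was 0.51 in 10% FEx and 0.34 in 2.5% FEx, and over all tested genes it was 0.41 and 0.42. These are descriptions across genes that share the same libraries. For each library, a smooth trend on exon length was fitted to the deviations of genes from their own means over the 9 libraries. After this trend had been removed, the median log2 fold changes were -0.04 and -0.02. Over the 73 genes, the coefficient with exon length was still 0.27 in 10% FEx and 0.15 in 2.5% FEx after this step. Calls that held with the trend removed are therefore not free of the length pattern. The genes that were then lower in 10% FEx were mRpL20, mRpL33, mRpL34, mRpL55, mRpS10, mRpS11, mRpS18A, mRpS18B, mRpS21, mRpS33 and mRpS34, and those higher were mRpL10, mRpS2 and mRpS28. All 11 were also among the 35 lower genes without the adjustment. The part that library-wide length trends have in the changes was not tested further. The lists of genes by setting were read after their values were seen.

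**Figure D4:**
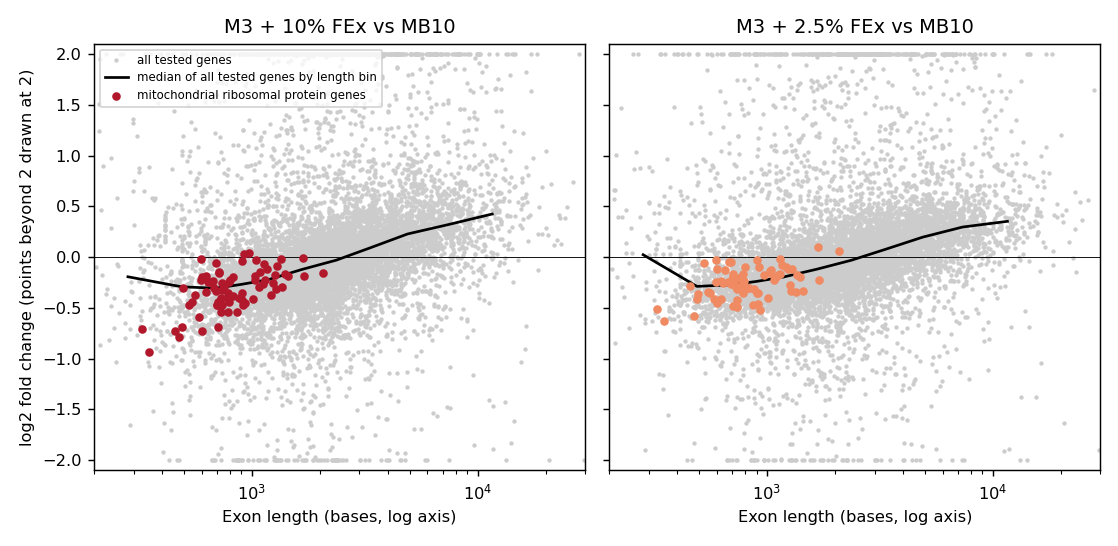
Log2 fold change against MB10 (vertical axis) by exon length in bases (horizontal log axis) in 10% FEx (left) and 2.5% FEx (right), with grey points for all tested genes, a black line for their median in length bins and coloured points for the 73 genes. The coloured points lie at the short end, between 327 and 2078 bases, where the median of all tested genes is below 0 over most bins.

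By the numbers in their names, 40 genes were listed as families shared with bacteria and 27 as specific to mitochondria, and 6 were placed in neither list. Of the 40 genes listed as shared with bacteria, 19 were lower in 10% FEx and 12 in 2.5% FEx, and of the 27 listed as specific to mitochondria 12 and 8 were lower. The medians of log2 fold change were -0.30 and -0.22 in the bacterial families and -0.27 and -0.28 in the mitochondria-specific ones. Of the 6 genes in neither list (mRpL47, mRpL55, mRpS18A, mRpS18B, mRpS24 and mRpS28), 4 were lower in 10% FEx and 2 in 2.5% FEx, with medians of -0.45 and -0.32. Most of these 6 also have bacterial counterparts, so the lists do not fully separate shared from specific proteins. By chromosome, the genes lower in 10% FEx were 7 of 12 on 2L, 7 of 12 on 2R, 5 of 17 on 3L, 12 of 21 on 3R and 4 of 11 on the X chromosome. Of the 30 genes with no exon shared with another gene, 14 were lower in 10% FEx and 10 in 2.5% FEx. Beside all counts in this paragraph stand the 27.6% and 22.2% of all tested genes that were lower in these media.

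The 2 genes for mitochondrial ribosomal proteins with other symbols had log2 fold changes below 0 in both FEx media. The gene tko, for the protein S12 at the decoding centre, had a log2 fold change of -0.32 in 10% FEx (adjusted p = 0.0234) and of -0.28 in 2.5% FEx, which did not pass (adjusted p = 0.0507). Its call in 10% FEx was lost without MB10 replicate 1 (adjusted p = 0.0965) or replicate 3 (adjusted p = 0.0564) and with the length trend removed (adjusted p = 0.147), and it was called in 2.5% FEx without replicate 2 (adjusted p = 0.000748). The gene bonsai, for S15, was at 45.9, 55.4 and 50.2 CPM in 10% FEx, 57.4, 64.4 and 60.2 CPM in 2.5% FEx and 73.5, 68.7 and 76.5 CPM in MB10. Both FEx media had lower levels than MB10, with log2 fold changes of -0.53 in 10% FEx (adjusted p = 0.000172) and -0.26 in 2.5% FEx (adjusted p = 0.0188), and neither overlapped with MB10. The call in 2.5% FEx was lost without MB10 replicate 1 (adjusted p = 0.0661) and with the length trend removed (adjusted p = 0.582).

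Of the RNA partners, mt:srRNA, the small ribosomal RNA, was at 125, 108 and 88.4 CPM in 10% FEx, 75.8, 103 and 110 CPM in 2.5% FEx and 286, 183 and 179 CPM in MB10. Its log2 fold changes were -1.01 in 10% FEx (adjusted p = 0.000834) and -1.17 in 2.5% FEx (adjusted p = 0.000472), with no overlap between either medium and MB10. The large ribosomal RNA, mt:lrRNA, was lower in 2.5% FEx (log2 fold change -0.93, adjusted p = 0.00497) and had a log2 fold change of -0.49 in 10% FEx, which did not pass (adjusted p = 0.0744). In both ribosomal RNAs MB10 replicate 1 was the highest library, at 65836 CPM of mt:lrRNA against 37106 and 40445 CPM in MB10 replicates 2 and 3. Without it, mt:lrRNA had log2 fold changes of -0.18 in 10% FEx (adjusted p = 0.413) and -0.61 in 2.5% FEx (adjusted p = 0.0151), while mt:srRNA was called in both media at -0.74 and -0.90. In 10% FEx, mt:lrRNA was called without MB10 replicate 2 (adjusted p = 0.0220) or replicate 3 (adjusted p = 0.0252). Libraries were selected for polyadenylated RNA, so these counts cover the polyadenylated part of each ribosomal RNA. Of the 13 protein genes in mitochondrial DNA, the templates of this ribosome, 6 were lower in 10% FEx and 9 in 2.5% FEx, with 0 higher, and the largest changes that passed were those of mt:ATPase8 (log2 fold change -1.15 in 10% FEx, adjusted p = 0.0198) and mt:ND3 (log2 fold change -0.93 in 2.5% FEx, adjusted p = 0.00151). Without MB10 replicate 1, 4 were lower in 10% FEx and 4 in 2.5% FEx. With the length trend removed, 2 were lower in 10% FEx, and 4 were lower and 1 higher in 2.5% FEx. In 10% FEx, mt:ATPase8 was then not called (adjusted p = 0.0561).

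Other factors of mitochondrial translation were listed by symbol, and some symbols were not found in the count table. Those found were 15 of 20 for aminoacyl-tRNA synthetases, 9 of 16 for translation factors and 15 of 18 for RNA synthesis and processing. Of all tested genes, 27.6% were lower in 10% FEx and 22.2% in 2.5% FEx. Among the 15 synthetase genes, 10 were lower in 10% FEx and 0 higher, with the largest change in AsnRS-m (log2 fold change -0.55, adjusted p = 0.00117). In 2.5% FEx, 5 were lower, with the largest change in CysRS-m (log2 fold change -0.38, adjusted p = 0.00493), and 1 was higher, AspRS-m (log2 fold change 0.24, adjusted p = 0.0417), which was named after its value was seen and was not called without MB10 replicate 1 or 3 or with the length trend removed. Of 9 translation factor genes, 3 were lower in 10% FEx and 2 in 2.5% FEx, with 0 higher (1 lower in 2.5% FEx without MB10 replicate 1 or 3, and 1 higher in 10% FEx without replicate 3). The largest change was that of the initiation factor gene mIF2 (log2 fold changes -0.70 and -0.50, adjusted p = 0.000226 and 0.00341). Of 15 genes of mitochondrial RNA synthesis and processing, 6 and 2 were lower and 0 higher, led by SLIRP2 (log2 fold changes -0.85 and -0.47, adjusted p = 9.92e-05 and 0.00699). Of this list, 2 genes were lower and 2 higher in 10% FEx with the length trend removed, where SLIRP2 was called in 10% FEx alone. Without MB10 replicate 3, 6 were lower and 2 higher in 10% FEx, and in 2.5% FEx the number of lower genes was 1, 4 and 3 without MB10 replicates 1, 2 and 3.

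Nuclear genes of the respiratory chain and genes of the cytosolic ribosome were set beside the 73 genes. Of 64 tested respiratory chain genes, 27 were lower and 1 higher in 10% FEx (median log2 fold change -0.29), and 35 were lower and 2 higher in 2.5% FEx (median -0.36). Their largest changes were those of ND-49 in 10% FEx (log2 fold change -0.995, adjusted p = 2.54e-07) and COX4L in 2.5% FEx (log2 fold change 0.897, adjusted p = 0.0200), which was not called without MB10 replicate 3 (adjusted p = 0.0748). In 2.5% FEx, ND-49 was lower by nearly the same size (log2 fold change -0.896, adjusted p = 9.0e-07). Without MB10 replicate 2, 43 and 54 of the respiratory chain genes were lower, without replicate 3, 23 and 25, with 7 and 1 higher, and with the length trend removed, 10 and 6. Of 86 cytosolic ribosomal protein genes, 8 were lower and 3 higher in 10% FEx (median 0.09), and 26 were lower and 0 higher in 2.5% FEx (median -0.32), with the largest change in RpS19b (log2 fold changes -1.67 and -1.37). These counts turned on single MB10 libraries. In 10% FEx, 49 cytosolic genes were higher without MB10 replicate 3 (median 0.28), 0 were higher without replicate 2 (median -0.05) and 48 were with the length trend removed (median 0.36). In 2.5% FEx, 72 were lower without replicate 2, 15 without replicate 1 or 3, and 5 with the length trend removed. Between the FEx media, 19 cytosolic genes were higher and 1 lower in 10% FEx (median 0.42), while the mitochondrial ones had a median of -0.05. The number of higher cytosolic genes in that comparison was 61 without MB10 replicate 2 and 66 without replicate 3. These medians are descriptions, and the difference between the lists was not tested.

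**Figure D5:**
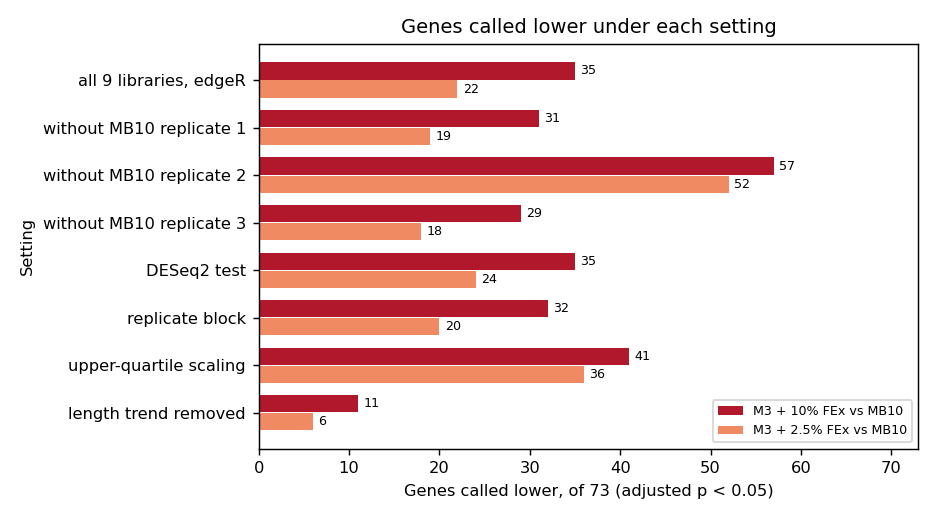
Number of the 73 genes called lower than MB10 at an adjusted p under 0.05 (horizontal axis, from 0) under each setting (rows), dark red for 10% FEx and orange for 2.5% FEx. The counts are 35 and 22 with all 9 libraries, 57 and 52 without MB10 replicate 2, and 11 and 6 with the length trend removed, where 21.8% and 15.9% of all tested genes were lower.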

How the data were processed

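RNA was prepared from S2R+ cells in 3 media, 3 cultures each, with a stranded, poly(A)-selecting kit and paired-end sequencing. The authors trimmed reads with Trimmomatic (0.36), mapped them with HISAT2 (2.1.0), counted them per gene with featureCounts (1.6.4) and deposited raw counts without normalization, and their settings for strand and multiply mapping reads are not given in the sources used here. From these counts, TMM-normalized CPM were computed with edgeR (4.0.16, R 4.3.3), and genes were kept by filterByExpr (8705 of 17562).

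The 3 comparisons were tested with glmQLFit and glmQLFTest in 1 model of all 9 libraries, with Benjamini-Hochberg adjustment over all tested genes within a comparison. A gene was called at an adjusted p under 0.05, and a stricter rule added a log2 fold change above 1 or below -1. The standard error was taken as the size of the log2 fold change over the root of its F statistic. The procedure was tested on simulated data. The members and gene lists were chosen with earlier results of these data known.

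Named members were, per comparison with MB10, the 6 highest and 6 lowest log2 fold changes among called members, 4 each between FEx media, members past the fold threshold, the 3 highest and 3 lowest levels per exon length, and untested members. Among other genes, tko, bonsai, the mitochondrial rRNA genes and the largest called change of each list were named. Members outside this rule (mRpS6, mRpS18A, mRpS18B, mRpS33, mRpL10, mRpS2, mRpS24 and mRpS28), AspRS-m and the hemocyte markers called in either FEx medium were named after their values were seen.

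Replicate libraries were not alike within counting error (chi-square 10.2 to 68.1 per degree of freedom). Positions and exon lengths come from Ensembl (BDGP6.54), on the assembly the authors mapped to but later than their annotation. Alternatives were other scalings, filters and tests, a replicate block, each library left out, and, chosen after seeing the data, removal of a per-library length trend. That trend was a loess fit (span 0.5) on log2 exon length. It was fitted to each gene's log2 expression in the library minus its mean over the 9 libraries. Depths were 20694827 to 29076620 counts per library. How counting error compares with the spread between cultures in single genes is not given here.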

Additional observations from a re-analysis of the deposited data

How the results depend on the processing

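Against MB10, the counts of lower genes changed most without MB10 replicate 2 and with the length trend removed. The lowest counts with a library left out came without M3 + 10% FEx replicate 3 (25 in M3 + 10% FEx) and without M3 + 2.5% FEx replicate 3 (16 in M3 + 2.5% FEx). Between the FEx media, the count changed most with single FEx libraries left out. With the length trend removed (chosen after seeing the data), 11 genes were lower and 3 higher in M3 + 10% FEx against MB10. The median log2 fold change of the 73 genes was then -0.038, and 21.8% of all tested genes were lower. In M3 + 2.5% FEx against MB10, 6 were lower and 2 higher (median -0.0196), beside 15.9% lower of all tested genes. Between the FEx media, 7 were lower and 1 higher in M3 + 10% FEx with this trend removed, beside 12.03% lower of all tested genes. With each library left out in turn, lower genes numbered 25 to 57, 16 to 52 and 1 to 14 in M3 + 10% FEx against MB10, M3 + 2.5% FEx against MB10 and between the FEx media, higher genes 0 to 2, 0 to 0 and 0 to 1, and the medians were -0.39 to -0.14, -0.36 to -0.12 and -0.093 to -0.023. In the same fits, the shares lower of all tested genes were 22.7% to 28.8%, 15.5% to 25.7% and 6.06% to 15.5%. Upper-quartile scaling gave 36 lower genes in M3 + 2.5% FEx, beside 27.9% of all tested genes. Between the FEx media, 14 were lower without scaling beyond library size, beside 15.4% of all tested genes. The number was also 14 with a fit of these 2 media alone, beside 17.1%, and in that fit 1 was higher. Without the filter on low counts, 1 was likewise higher. The causes of these changes were not tested. Of the 41 other mitochondrial translation genes, 21, 10 and 4 were lower in the 3 comparisons. Scaling by library size alone gave 6 lower and 2 higher in M3 + 2.5% FEx and 7 lower between the FEx media, and DESeq2's size factors gave 1 higher in M3 + 10% FEx.

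Labels share replicate numbers, but same-numbered libraries did not deviate together (correlations 0.043, 0.070 and -0.071 between M3 + 10% FEx and MB10, -0.17, -0.15 and -0.36 between M3 + 2.5% FEx and MB10, and 0.081, -0.021 and 0.024 between the FEx media), and 2, 0 and 3 of 6 libraries correlated best with their own number. With a replicate block, 32, 20 and 6 genes were lower, beside 25.5%, 18.8% and 8.48% of all tested genes.

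Over the 28 named genes and the 3 comparisons, 1318 of the recomputed log2 fold changes kept direction and call, 123 lost the call, 40 gained it and 31 changed sign. With the length trend removed, signs changed to 0.068 for mRpL14 and 0.076 for mRpS14 in M3 + 10% FEx against MB10, to 0.085 for mRpL1, 0.12 for mRpL14, 0.018 for mRpL23, 0.070 for mRpL32, 0.19 for mRpL54, 0.071 for mRpS10, 0.15 for mRpS14 and 0.21 for mRpS18C in M3 + 2.5% FEx, and to 0.047 for mRpL52 between the FEx media. With library size alone they changed to 0.010 for mRpL54 and 0.0019 for mRpS18C in M3 + 2.5% FEx, and to -0.015 for mRpL21, -0.060 for mRpL47 and -0.0401 for mRpS31 between the FEx media. For mRpL47 between the FEx media, the value was -0.0064 without the filter and -0.0083 with the replicate block. With libraries left out, values ranged from -0.43 to 0.12 for mRpS14 in M3 + 10% FEx, from -0.26 to 0.054 for mRpL14, -0.31 to 0.24 for mRpS14, -0.19 to 0.044 for mRpS18C and -0.090 to 0.013 for mRpL54 in M3 + 2.5% FEx, and between the FEx media from -0.0053 to 0.12 for mRpL27, -0.097 to 0.048 for mRpL47, -0.087 to 0.067 for mRpL52 and -0.093 to 0.090 for mRpS31. A search of promoter motifs, with its alternative window, was not run, since no promoter sequence was used here.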
